A study of Homo sapiens with 5 samples.

Results

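Respiratory chain subunits are encoded in 2 genomes, and both sets were measured in LX-2 cells, an immortalised human line derived from hepatic stellate cells, which lay down much of the matrix of a fibrotic liver. The set described here has 57 members of the 19936 genes in the files, 13 encoded in mitochondrial DNA (MT- genes) and 44 nuclear genes for subunits of complexes I to V. Members were chosen by gene symbol and found by their Ensembl IDs. The set was proposed with results of the same comparison in view, among them the share of reads from MT- genes and the direction of nuclear subunit genes, so the differences below are given as a description and nothing is supported with them. The rule has no threshold on level or fold. RNA was taken 48 h after transfection with siRNA against LIX1L, a gene for a putative RNA-binding protein (3 libraries, called siLIX1L 1, 2 and 3), or with control siRNA (2 libraries, called siControl 1 and 2). All libraries come from the same cell line, without any other treatment named in the labels. Separate cultures are not mentioned in the labels, and the numbers in the titles could stand for replicates or for different siRNAs.

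The respiratory chain sits in the inner mitochondrial membrane. Complexes I and II pass electrons to ubiquinone, complex III passes them to cytochrome c, complex IV (cytochrome c oxidase) passes them to oxygen, and complex V (ATP synthase) uses the proton gradient built by complexes I, III and IV to make ATP. Human mitochondrial DNA encodes core subunits of complexes I, III, IV and V and none of complex II. Its genes are transcribed from both strands as long polycistronic RNAs that are cut into mRNAs inside the organelle, whereas nuclear subunit genes each have their own promoter, are translated in the cytosol and have their proteins imported.

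The libraries held 14856104 to 17811940 reads over genes in the siLIX1L group and 14877647 and 18294056 in the controls. Levels are given as RPM, reads per 1000000 of these totals. Errors after ± are SDs over the 3 siLIX1L and the 2 siControl libraries. LIX1L was at 6.60, 7.08 and 3.65 RPM in siLIX1L 1, 2 and 3, against 26.4 and 35.5 RPM in siControl 1 and 2, and was called lower (limma difference -0.87 on log2(FPKM + 1), SE 0.11, adjusted p = 0.0384). That call was lost when any 1 of the siLIX1L libraries was left out (limma adjusted p = 0.0715 to 0.228), with the difference between -0.82 and -0.90. LIX1L reached the minimum of 1 FPKM for this test through the controls alone, where it was higher. It was at 1.26 ± 0.261 FPKM in siControl and 0.235 ± 0.0756 FPKM in siLIX1L libraries. With either control left out it was therefore not tested, and with no minimum level it was not called (limma adjusted p = 0.0969). The 12 stellate and fibroblast markers summed to 6446 to 6892 RPM in siLIX1L libraries and to 3705 and 10388 RPM in siControl 1 and 2, with COL1A1 at 1813 RPM or more in every library. In 4 of the 12 every siLIX1L library lay below both controls (21.8% of all genes with enough reads). These were COL1A2, LUM, THY1 and ACTA2, the smooth muscle actin of activated stellate cells. ACTA2 was at 8.89, 8.41 and 14.8 RPM in siLIX1L 1, 2 and 3, against 39.0 and 35.4 RPM in siControl 1 and 2. LRAT, the enzyme that stores retinol in quiescent stellate cells, was at 0 reads in all 5 libraries, and DES, desmin, was at 13 reads or fewer. The 7 hepatocyte markers summed to 1.52 to 3.31 RPM in siLIX1L libraries and to 3.29 and 6.45 RPM in siControl 1 and 2, nearly all of it SERPINA1. APOB and TTR were at 0 and ALB had 1 read at most per library. The summed level of the 6 leukocyte markers was 5.73 to 9.47 RPM in siLIX1L libraries and 11.0 and 37.6 RPM in siControl 1 and 2, most of it CD14, with CD68 and CD163 at 2 reads or fewer in every library. The sum of the 5 cholangiocyte and epithelial markers was 54.0 to 105 RPM in siLIX1L libraries and 46.5 and 31.4 RPM in siControl 1 and 2. SOX9 made up most of this and alone among them had a higher mean in siLIX1L libraries. It was at 104, 102 and 50.7 RPM in siLIX1L 1, 2 and 3. In siControl 1 and 2 it was at 42.0 and 28.8 RPM (limma adjusted p = 0.103). KRT7 was at 1.48, 1.06 and 3.03 RPM in siLIX1L 1, 2 and 3, against 4.10 and 2.19 RPM in siControl 1 and 2. KRT19, EPCAM and CDH1 were at 4 reads or fewer. The 5 endothelial markers summed to 3.30 to 7.15 RPM in siLIX1L libraries and to 5.38 and 2.41 RPM in siControl 1 and 2. The part of ACTA2, CD14, SOX9 and the other markers in the results below was not tested. Libraries stood apart within both groups: siControl 2 lay above siControl 1 for most members, and siLIX1L 3 differed from siLIX1L 1 and 2 in a few nuclear members.

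The MT- genes were lower as a group in the siLIX1L libraries. Together they took 1.08, 1.29 and 1.14% of reads in siLIX1L 1, 2 and 3, against 2.24 and 3.35% in siControl 1 and 2, and the 95% counting interval (Wilson) of the highest of these shares was 3.34 to 3.35%. The siLIX1L share averaged 1.17 ± 0.106% (SD, n = 3), 2.38-fold below the 2.79 ± 0.783% (SD, n = 2) of the controls. All 13 had a negative log2 ratio of mean RPM, siLIX1L over siControl, with a median of -1.19 and a range of -1.90 to -0.18. Over the 13026 genes with enough reads for edgeR the median was -0.03 and 51.9% were negative. In 12 of the 13 every siLIX1L library lay below both controls, which was the case for 21.8% of all those genes. In a bulk library, fewer such transcripts in each cell and a change in the mix of cells cannot be told apart. Without siControl 1 the median was -1.30, and without siControl 2 it was -0.90.

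**Figure D1:**
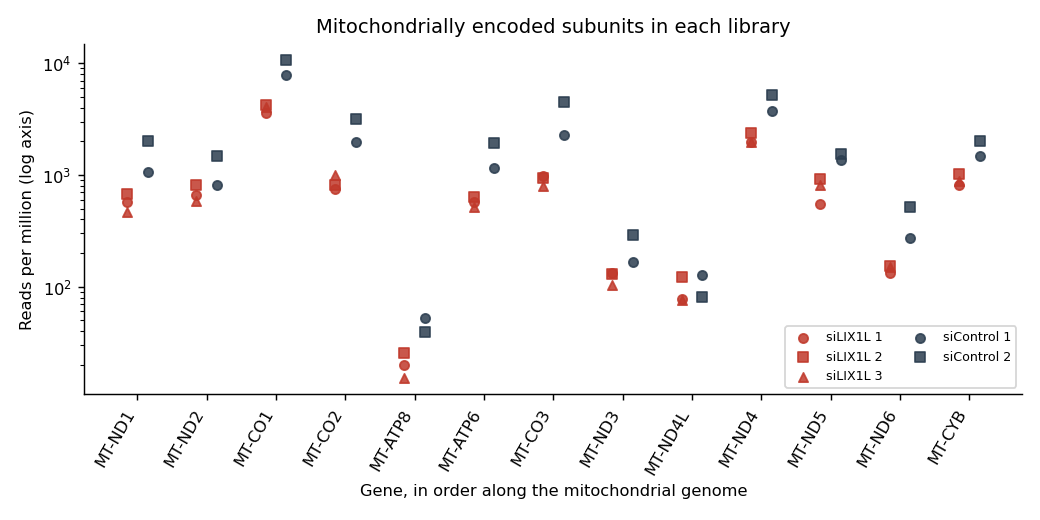
Level of each of the 13 mitochondrially encoded genes (RPM, log axis) in order along the mitochondrial genome, with siLIX1L libraries in red to the left and siControl libraries in dark blue to the right of each gene. The siLIX1L points lie below both control points for every gene except MT-ND4L.

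Among the MT- genes, MT-CO3 and MT-CO2 of complex IV had the largest differences, while MT-CO1 came after MT-ND6, MT-ND1 and MT-ATP6. MT-CO1, MT-CO2 and MT-CO3 encode the 3 core subunits of complex IV. MT-CO1 carries the site where oxygen is reduced, and MT-CO2 takes electrons from cytochrome c. MT-CO3 (GRCh38, chrM:9207-9990, plus strand) was at 979, 941 and 805 RPM in siLIX1L 1, 2 and 3, against 2289 and 4474 RPM in siControl 1 and 2. It averaged 908 ± 91.4 RPM in siLIX1L libraries (SD, n = 3) and 3382 ± 1545 RPM in controls (SD, n = 2), or 3.72-fold lower, and 2.52-fold lower without siControl 2. The siLIX1L libraries were close to each other, and the 2 controls differed by 1.95-fold. MT-CO2 (chrM:7586-8269) was at 748, 818 and 991 RPM in siLIX1L 1, 2 and 3, against 1974 and 3154 RPM in siControl 1 and 2, which is 3.01-fold lower. MT-CO1 (chrM:5904-7445), the member with the most reads, was at 3585, 4277 and 4061 RPM in siLIX1L 1, 2 and 3, against 7841 and 10737 RPM in siControl 1 and 2, or 2.34-fold lower. For both genes the groups were apart, with the highest siLIX1L value below the lower control.

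The complex V genes MT-ATP6 and MT-ATP8 encode subunits of the membrane part of ATP synthase, MT-ATP6 the one that forms the proton path. MT-ATP6 (chrM:8527-9207) was at 572, 634 and 520 RPM in siLIX1L 1, 2 and 3, against 1145 and 1946 RPM in siControl 1 and 2, or 2.68-fold lower. MT-ATP8 (chrM:8366-8572) was at 19.7, 25.4 and 15.1 RPM in siLIX1L 1, 2 and 3, against 52.2 and 39.1 RPM in siControl 1 and 2, or 2.28-fold lower, and here siControl 1 was the higher control. Both reading frames lie on 1 mRNA and share 46 bases, 22.2% of MT-ATP8, and how reads in the shared stretch were assigned is not known. MT-ND4L and MT-ND4 also share an mRNA, with 7 bases in common. The shared stretches are shown as GENCODE 29 gives them, 5′ to 3′ on the plus strand; in the first, capitals mark the start codon of MT-ATP6, and in the second the 7 shared bases, in which the start codon of MT-ND4 overlaps the end of MT-ND4L.
MT-ATP8 and MT-ATP6, GRCh38 chrM:8527-8572, plus strand: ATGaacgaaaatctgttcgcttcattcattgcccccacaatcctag
MT-ND4L and MT-ND4, GRCh38 chrM:10740-10786, plus strand: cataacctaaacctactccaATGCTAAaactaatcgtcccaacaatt

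The 7 MT-ND genes encode membrane subunits of complex I and had the widest spread. MT-ND6 is the sole member transcribed from the other strand (chrM:14149-14673, minus strand). It was at 132, 153 and 150.3 RPM in siLIX1L 1, 2 and 3, against 271 and 514 RPM in siControl 1 and 2, or 2.71-fold lower, inside the range of the 12 genes of the plus strand. Whether reads were counted by strand is not known, so this does not compare the strands. MT-ND1 (chrM:3307-4262) was at 577, 676 and 467 RPM in siLIX1L 1, 2 and 3, against 1075 and 2005 RPM in siControl 1 and 2, or 2.69-fold lower. MT-ND4 (chrM:10760-12137) was 2.13-fold lower, at 2107 ± 228 RPM (SD, n = 3) in siLIX1L and 4477 ± 1009 RPM (SD, n = 2) in siControl libraries. MT-ND5 (chrM:12337-14148), at 760 ± 189 RPM in siLIX1L and 1463 ± 131 RPM in siControl libraries, was 1.92-fold lower, and MT-ND3 (chrM:10059-10404), at 122 ± 15.96 RPM in siLIX1L and 229 ± 89.6 RPM in siControl libraries, was 1.87-fold lower. MT-ND2 (chrM:4470-5511) was at 664, 808 and 586 RPM in siLIX1L 1, 2 and 3, against 823 and 1467 RPM in siControl 1 and 2. The gap between siLIX1L 2 and siControl 1 was thus small, and the 1.67-fold lower mean of MT-ND2 was 1.199-fold without siControl 2.

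MT-ND4L was the exception. It was at 77.9, 121 and 75.7 RPM in siLIX1L 1, 2 and 3, against 127 and 80.8 RPM in siControl 1 and 2, so the groups overlapped. Its mean was 1.14-fold lower, and without siControl 1 its log2 ratio turned to 0.18, while its partner on the same mRNA, MT-ND4, was lower in each siLIX1L library than in both controls. MT-CYB (chrM:14747-15887), cytochrome b of complex III, which carries electrons across the membrane, was at 818, 1022 and 877 RPM in siLIX1L 1, 2 and 3, against 1484 and 2002 RPM in siControl 1 and 2, or 1.93-fold lower.

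Within the MT- reads the mix also differed. MT-CO3 made up 7.79 ± 1.09% of them (SD, n = 3) in siLIX1L libraries, against 11.8 ± 2.22% (SD, n = 2) in controls, and MT-CO2 7.30 ± 1.21% in siLIX1L and 9.12 ± 0.428% in siControl libraries, both with groups that did not overlap. MT-ND2, MT-ND3, MT-ND4, MT-ND4L and MT-CYB took higher shares in each siLIX1L library than in either control, MT-CYB for example 7.71 ± 0.193% in siLIX1L and 6.31 ± 0.458% in siControl libraries. These are shares of the same total, so lower shares of MT-CO3 and MT-CO2 go with higher shares of other genes. The mean RPM of each of these genes was lower in siLIX1L libraries. Shares within MT- reads have no counterpart over all genes. MT-CO1, at 33.9 ± 1.35% in siLIX1L and 33.6 ± 2.08% in siControl libraries, was the largest in both groups. Per kilobase of mRNA, in RPKM (RPM per kilobase), the level of MT-CO1 was 2578 ± 230 in siLIX1L and 6024 ± 1328 in siControl libraries, the highest in both groups. MT-CO3 was second in controls, with a level of 4313 ± 1970 RPKM, but in siLIX1L libraries, with 1158 ± 117 RPKM, it came after MT-CO1, MT-ND4 and MT-CO2. MT-CO2, with 1246 ± 183 RPKM, and MT-CO3 did not differ beyond their spread in siLIX1L libraries, nor did MT-CO3 and MT-CO2 (3748 ± 1219 RPKM) in controls. MT-ATP8 was last in both groups, at a level of 96.9 ± 24.8 RPKM in siLIX1L libraries and 221 ± 44.9 RPKM in controls.

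The 44 nuclear members were lower by less, and their groups overlapped more often. Their median log2 ratio was -0.32 (range -1.44 to 0.35), against -1.19 for the MT- genes, and 40 of 44 were negative. Every siLIX1L library lay below both controls in 15 of 44 (21.8% of all genes with enough reads), above both in SDHB alone (22.2% of all genes), and the groups overlapped in 28. Without siControl 2 the median was -0.20 and 32 of 44 were negative, against 51.6% of all genes. The summed MT- level divided by the summed nuclear level was 2.58, 3.46 and 2.79 in siLIX1L 1, 2 and 3, against 5.01 and 5.88 in siControl 1 and 2, with no overlap. Without COX5A and NDUFA8, described below, the nuclear median was -0.29. Nuclear members have short transcripts (median of the longest 1.26 kb, against 3.48 kb for all genes with enough reads), and with a trend on transcript length and GC content removed from each library the nuclear median was -0.09 and the MT- median -0.85.

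**Figure D2:**
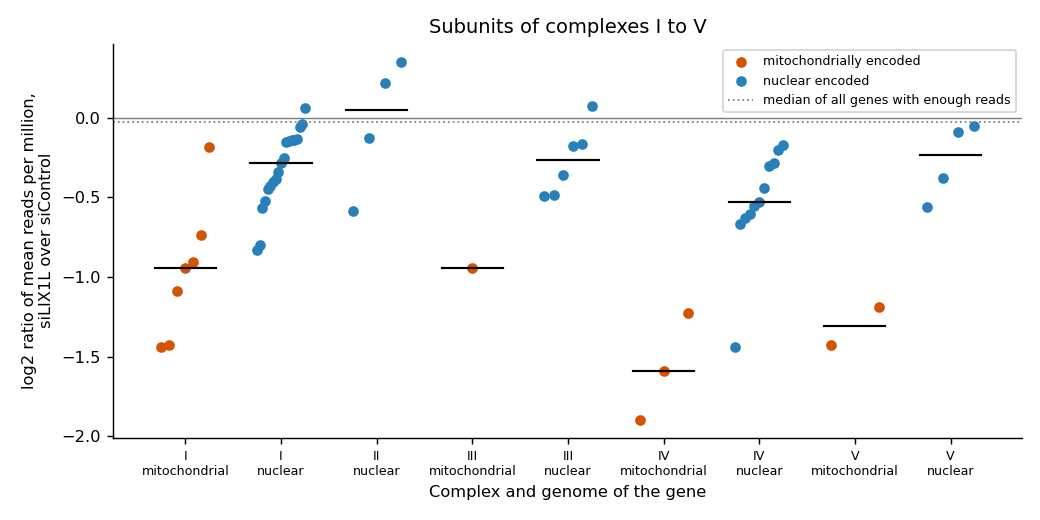
Log2 ratio of mean RPM, siLIX1L over siControl, for each of the 57 members by complex and genome (orange, mitochondrially encoded; blue, nuclear encoded); black bars are medians of the groups, the dotted line is the median of all genes with enough reads (-0.03). The mitochondrially encoded medians lie below the nuclear ones in complexes I, III, IV and V.

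In the fit over all 6464 genes with at least 1 FPKM in 2 libraries, limma called 0 of the 50 members tested, where it called 1.87% of all genes (1.13% lower, 0.743% higher). At an unadjusted p under 0.05 there were 18 of 50, where 27.6% of all genes were. EdgeR on the recovered reads called 2 of 57, MT-CO2 and MT-CO3, both lower (1.44% of all genes, 0.883% lower), and DESeq2 11 of 57, all MT- genes and all lower (12.5% of all genes, 6.22% lower and 6.32% higher). These calls use the comparison from which the set was proposed, and nothing is read from them. Without siControl 1 limma called 19 of 50 members, all lower (24.1% of all genes, 11.9% lower), and without siControl 2 it called 1 of 49, lower (4.09% of all genes, 2.66% lower).

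The nuclear subunits of complex IV had a median log2 ratio of -0.53 over 11 genes, all of them negative, and in 5 every siLIX1L library lay below both controls (21.8% of all genes with enough reads). With all libraries this was the lowest median of the nuclear groups. Without siControl 2 it was -0.20 with 9 of 11 negative, and that of complex I, at -0.24, was then lower. COX4I1, which binds the core subunits and takes part in regulation by ATP, was at 187, 156 and 162 RPM in siLIX1L 1, 2 and 3, against 201 and 293 RPM in siControl 1 and 2, or 1.47-fold lower. Its level per kilobase of mRNA, 237 ± 23.1 RPKM in siLIX1L and 349 ± 91.3 RPKM in siControl libraries, was among the 3 highest of the nuclear members. COX6B1, a subunit on the side of the intermembrane space, had the smallest difference of the complex. It was at 73.2, 70.6 and 64.8 RPM in siLIX1L 1, 2 and 3, against 63.1 and 93.7 RPM in siControl 1 and 2, with the controls on either side of the siLIX1L values.

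COX5A, a structural subunit of complex IV, split the siLIX1L group. It was at 11.9, 12.4 and 86.1 RPM in siLIX1L 1, 2 and 3, against 88.7 and 110.6 RPM in siControl 1 and 2. SiLIX1L 3 was close to siControl 1, and siLIX1L 1 and 2 were far below all others, with 177 and 187 reads against at least 1319 in each of the others. Its 2.71-fold lower mean (log2 ratio -1.44, the lowest of the nuclear members) was 8.20-fold without siLIX1L 3 and 2.02-fold without siLIX1L 1. NDUFA8, an accessory subunit of complex I with disulfide bonds, had the same pattern, at 14.7, 13.1 and 43.7 RPM in siLIX1L 1, 2 and 3, against 38.9 and 45.8 RPM in siControl 1 and 2. Its siLIX1L 3 value lay between the controls, and its mean was 1.78-fold lower, 3.05-fold without siLIX1L 3 and 1.49-fold without siLIX1L 1.

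SiLIX1L 3 was 7.09-fold higher than the mean of siLIX1L 1 and 2 in COX5A and 3.14-fold in NDUFA8. These were the nuclear members that were at least 2-fold higher there, 2 of 44, as were 3.08% of all genes with enough reads. With 1 library on 1 side this has no replicate check. NDUFB5, an accessory subunit of complex I, went the other way (1 of 44 at least 2-fold lower, against 3.68% of all genes): it was at 44.7, 40.6 and 18.6 RPM in siLIX1L 1, 2 and 3, against 36.5 and 55.2 RPM in siControl 1 and 2. NDUFB5 was named after its values were seen. None of the 13 MT- genes differed by 2-fold between siLIX1L 3 and the mean of siLIX1L 1 and 2.

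**Figure D3:**
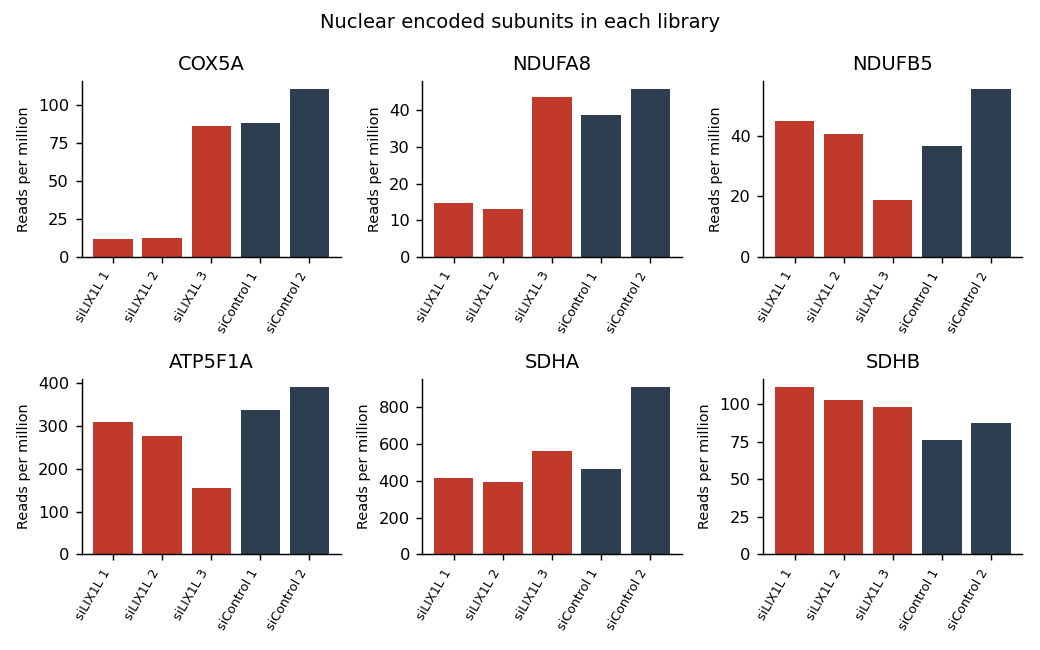
Level in RPM of 6 nuclear encoded subunits in each library (red, siLIX1L 1 to 3; dark blue, siControl 1 and 2; bars start at 0). COX5A and NDUFA8 are low in siLIX1L 1 and 2 and near the controls in siLIX1L 3, NDUFB5 and ATP5F1A are lowest in siLIX1L 3, SDHA is highest in siControl 2, and SDHB is higher in all siLIX1L libraries.

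The 19 nuclear members of complex I had a median log2 ratio of -0.28, with 18 negative and 6 lower in all siLIX1L libraries (21.8% of all genes with enough reads). Without siLIX1L 3 it was -0.19. Among these 6 was NDUFV1, which holds the site where NADH gives up its electrons, with 184, 170.2 and 180 RPM in siLIX1L 1, 2 and 3, against 216 and 311 RPM in siControl 1 and 2. NDUFS8, an iron-sulfur subunit, was another, with 115 ± 10.6 RPM (SD, n = 3) in siLIX1L and 166 ± 19.0 RPM (SD, n = 2) in siControl libraries. NDUFS7, which also carries an iron-sulfur cluster, had the only positive ratio, with few reads and overlapping groups: 4.71, 6.03 and 4.604 RPM in siLIX1L 1, 2 and 3, against 4.57 and 5.25 RPM in siControl 1 and 2. NDUFV1 and NDUFS8 were named after their values were seen.

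Complex II, which is also an enzyme of the tricarboxylic acid cycle and has no mitochondrially encoded subunit, had a median of 0.046 over 4 genes, which was 0.12 without siControl 2 and -0.0011 without siLIX1L 1. SDHB, its iron-sulfur subunit (chromosome 1, minus strand), was at 112, 103 and 98.4 RPM in siLIX1L 1, 2 and 3, against 76.2 and 87.3 RPM in siControl 1 and 2. It was 1.28-fold higher, above both controls in every siLIX1L library, and had the highest ratio of the 57 members. SDHC, a membrane anchor, was at 120 ± 13.2 RPM in siLIX1L and 103 ± 3.55 RPM in siControl libraries, and SDHD, the other anchor, at 65.6 ± 3.66 RPM in siLIX1L and 71.5 ± 5.38 RPM in siControl libraries. SDHA, the subunit that oxidises succinate, was at 417, 395 and 562 RPM in siLIX1L 1, 2 and 3, against 464 and 911 RPM in siControl 1 and 2. Its log2 ratio of -0.58 shrank to a 1.01-fold lower mean without siControl 2, so the difference rested on 1 control. SDHC and SDHD were named after their values were seen.

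Complex III had a median of -0.27 over 6 nuclear members, 5 of them negative. Without siControl 2 it was -0.11, with 3 of 6 negative. UQCRC2, a core subunit outside the electron path, was at 114, 104 and 163 RPM in siLIX1L 1, 2 and 3, against 169 and 187 RPM in siControl 1 and 2, with siLIX1L 3 just under the controls. CYC1, cytochrome c1, was at 108, 94.0 and 116 RPM in siLIX1L 1, 2 and 3, against 160 and 137 RPM in siControl 1 and 2, a member in which siControl 1 was the higher control. UQCRFS1, the Rieske iron-sulfur protein, had a log2 ratio of 0.08 with overlapping groups, at 112 ± 13.4 RPM in siLIX1L and 106 ± 26.4 RPM in siControl libraries. CYC1 was named after its values were seen.

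In complex V the median over 4 nuclear members was -0.24. It was -0.50 without siControl 1 and -0.053 without siControl 2. ATP5F1B, the catalytic β subunit and the nuclear member with the highest level per kilobase (337 ± 16.4 RPKM in siLIX1L and 350 ± 5.53 RPKM in siControl libraries), was at 645, 586 and 628 RPM in siLIX1L 1, 2 and 3, against 650.4 and 636 RPM in siControl 1 and 2. The values overlapped, and all lay within a narrow range. ATP5F1A, the α subunit, was at 309, 277 and 155 RPM in siLIX1L 1, 2 and 3, against 338 and 390.2 RPM in siControl 1 and 2, lower in each siLIX1L library and lowest in siLIX1L 3. Both subunits alternate in the same ring of the enzyme.

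**Figure D4:**
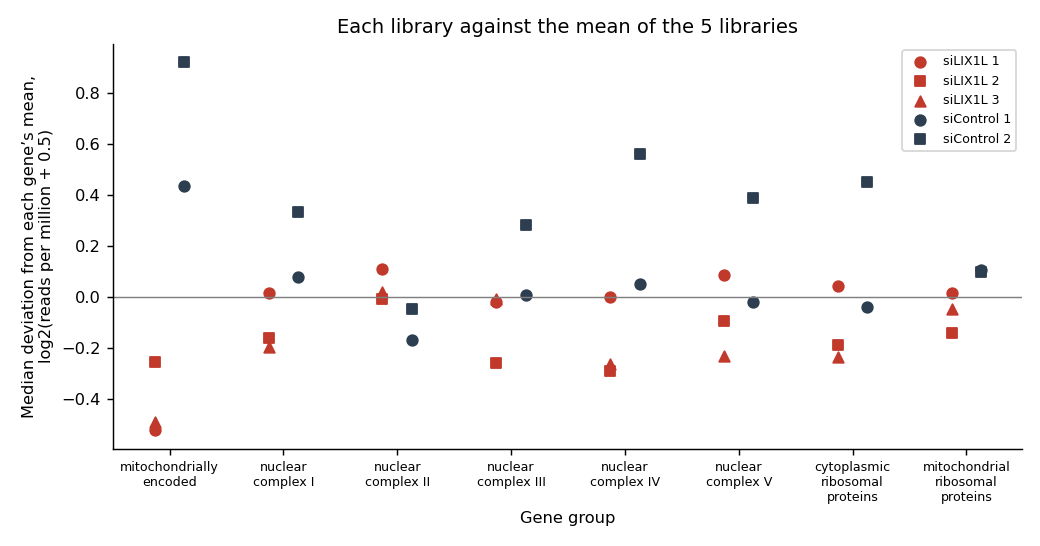
Median over each gene group of the deviation of log2(RPM + 0.5) from the gene's mean over the 5 libraries, by library (red, siLIX1L; dark blue, siControl). SiControl 2 is the highest library for the mitochondrially encoded genes (0.92), nuclear complex IV (0.56) and cytoplasmic ribosomal proteins (0.45). It is also the highest for nuclear complexes I (0.33), III (0.28) and V (0.39), but not for complex II or mitochondrial ribosomal proteins. SiControl 1 is apart from the siLIX1L libraries for the mitochondrially encoded genes (0.43).

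SiControl 2 was above siControl 1 in 11 of the 13 MT- genes and 36 of the 44 nuclear members, against 45% of all genes with enough reads. For the 11 nuclear subunits of complex IV the median log2 ratio of siControl 2 over siControl 1 was 0.54, and all 11 were higher in siControl 2. Of the cytoplasmic ribosomal proteins, 73 of 76 were higher in siControl 2. Their median log2 ratio was -0.33, with 67 of 76 negative, and -0.02 without siControl 2.

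Promoters of 35 of the 44 nuclear members were found in the RefSeq table (GRCh38.p14, 250 bases before to 50 after the start). They were searched on both strands for letters bound by NRF1, GABPA and YY1, which are known regulators of nuclear respiratory genes. The NRF1 motif, of which NDUFA8 below holds an example, was in 8 of 35 (22.9%), against 11.4% of the 10589 promoters of genes with enough reads. The ETS letters CCGGAAG, of the family of GABPA, were in 11 (31.4%, against 19.0%), and the YY1 motif, as in SDHB below, in 4 (11.4%, against 2.002%). The 3 motifs do not contain one another. Members with and without a match had median log2 ratios of -0.24 and -0.34 for NRF1 and of -0.28 and -0.35 for ETS. For YY1 they were -0.095 (n = 4) and -0.38. Shown, 5′ to 3′ on the gene's strand with matches in capitals, are SDHB, the member higher in all siLIX1L libraries, and NDUFA8 and COX5A, which split the siLIX1L libraries; NDUFA8 has 2 overlapping NRF1 matches and COX5A has none of the 3.
SDHB, GRCh38.p14 chr1:17053983-17054282, minus strand: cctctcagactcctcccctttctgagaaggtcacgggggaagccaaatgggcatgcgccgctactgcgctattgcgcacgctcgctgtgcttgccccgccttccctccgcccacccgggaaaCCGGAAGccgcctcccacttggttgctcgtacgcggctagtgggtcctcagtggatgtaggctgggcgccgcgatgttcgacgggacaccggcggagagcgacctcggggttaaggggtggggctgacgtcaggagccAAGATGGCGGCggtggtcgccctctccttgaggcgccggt
NDUFA8, GRCh38.p14 chr9:122159730-122160029, minus strand: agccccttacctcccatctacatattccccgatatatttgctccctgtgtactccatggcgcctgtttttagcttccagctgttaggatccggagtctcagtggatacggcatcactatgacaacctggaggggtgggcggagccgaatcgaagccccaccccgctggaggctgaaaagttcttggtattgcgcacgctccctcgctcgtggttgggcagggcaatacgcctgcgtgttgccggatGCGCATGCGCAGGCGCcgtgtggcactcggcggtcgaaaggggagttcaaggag
COX5A, GRCh38.p14 chr15:74938024-74938323, minus strand: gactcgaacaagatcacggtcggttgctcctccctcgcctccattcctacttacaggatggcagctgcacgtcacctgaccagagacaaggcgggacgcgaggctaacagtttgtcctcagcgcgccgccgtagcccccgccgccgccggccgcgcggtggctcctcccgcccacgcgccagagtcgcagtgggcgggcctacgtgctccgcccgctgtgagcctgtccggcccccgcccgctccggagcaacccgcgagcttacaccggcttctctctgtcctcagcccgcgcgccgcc

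Of the factors that bind such letters, GABPA and YY1 did not pass limma's threshold, and NRF1 was not tested by limma. GABPA was at 72.8, 75.8 and 60.7 RPM in siLIX1L 1, 2 and 3, against 53.2 and 36.1 RPM in siControl 1 and 2 (limma adjusted p = 0.142). YY1 was at 187 ± 4.58 RPM in siLIX1L and 154 ± 15.1 RPM in siControl libraries (limma adjusted p = 0.313), and NRF1, named like YY1 for its motif after values were seen, at 16.8 ± 1.57 RPM in siLIX1L and 20.4 ± 5.49 RPM in siControl libraries, was below the minimum level. MYC, taken from the list of regulators of biogenesis and not for a motif, was at 87.8 ± 0.995 RPM in siLIX1L and 158 ± 71.5 RPM in siControl libraries (limma adjusted p = 0.153).

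The members were set beside 9 other mitochondrial lists with 259 genes. Limma called 0 of the 179 genes tested, against 1.87% of all genes, with 30 at an unadjusted p under 0.05 (27.6% of all genes). EdgeR called 0 of 246, with 45 at an unadjusted p under 0.05 (26.1% of all genes), and DESeq2 called 13 of 250, 4 higher and 9 lower (12.5% of all genes). The other subunits of complexes I to V had a median log2 ratio of -0.25, with 28 of 32 negative. Without siControl 2 it was -0.11, with 21 of 32 negative. Among them NDUFB11 of complex I was at 70.5, 59.1 and 68.9 RPM in siLIX1L 1, 2 and 3, against 95.9 and 147 RPM in siControl 1 and 2 (limma adjusted p = 0.0894). ATP5PD of complex V was at 23.4 ± 2.19 RPM in siLIX1L and 36.6 ± 2.17 RPM in siControl libraries (limma adjusted p = 0.0811). Of the 10 tissue and hypoxia isoforms and free factors, 4 had enough reads. Their median was -0.45, with 4 of 4 negative, and -0.18 with 2 of 4 negative without siControl 1. Among them ATP5IF1, which inhibits ATP synthase running in reverse, was at 50.2 ± 4.28 RPM in siLIX1L and 64.7 ± 7.46 RPM in siControl libraries (limma adjusted p = 0.235). CYCS, cytochrome c, was at 119 ± 24.4 RPM in siLIX1L and 127 ± 40.9 RPM in siControl libraries (limma adjusted p = 0.881).

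Assembly factors had a median of -0.18 (31 of 46 negative), and of -0.086 (24 of 46) without siControl 1. SURF1, needed to build complex IV, was at 17.2, 15.96 and 15.9 RPM in siLIX1L 1, 2 and 3, against 26.01 and 32.5 RPM in siControl 1 and 2 (limma adjusted p = 0.0609), and UQCC2, which acts on cytochrome b of complex III, at 17.2 ± 2.17 RPM in siLIX1L and 37.1 ± 9.83 RPM in siControl libraries (limma adjusted p = 0.0657). Both were lower in every siLIX1L library than in both controls, as were 14 of the 46 (21.8% of all genes with enough reads). In 6 of the 46 every siLIX1L library lay above both controls (22.2% of all genes). Mitochondrial ribosomal proteins had a median of -0.20, with 58 of 82 negative. MRPL2 was at 28.5 ± 3.76 RPM in siLIX1L and 51.5 ± 7.71 RPM in siControl libraries (limma adjusted p = 0.0669), and MRPL24 at 21.9 ± 5.69 RPM in siLIX1L and 42.7 ± 6.05 RPM in siControl libraries (limma adjusted p = 0.0754).

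Genes for the transcription and replication of mitochondrial DNA had a median of -0.02, with 8 of 15 negative, and of 0.21 without siControl 2. Every siLIX1L library lay above both controls in 4 of the 15 (22.2% of all genes with enough reads) and below both in 1 (21.8%). TFAM, which packs mitochondrial DNA and starts its transcription, was at 127, 117 and 140.3 RPM in siLIX1L 1, 2 and 3, against 109 and 80.7 RPM in siControl 1 and 2. It was higher in every siLIX1L library but not past the threshold (limma adjusted p = 0.208). MTERF3, a negative regulator of that transcription in mice, was at 18.6 ± 2.21 RPM in siLIX1L and 28.3 ± 6.55 RPM in siControl libraries (limma adjusted p = 0.164). Genes for processing, stability and decay of mitochondrial RNA had a median of 0.16, with 12 of 19 positive, and of 0.26 without siControl 2. FASTKD3 was at 37.8 ± 5.08 RPM in siLIX1L and 23.5 ± 2.66 RPM in siControl libraries (limma adjusted p = 0.0970), and FASTKD5, which is needed to cut precursor RNAs that lack a tRNA at the end, at 45.0 ± 1.55 RPM in siLIX1L and 30.8 ± 3.29 RPM in siControl libraries (limma adjusted p = 0.107). LRPPRC, which stabilises mitochondrial mRNAs, was at 178 ± 6.78 RPM in siLIX1L and 150 ± 9.64 RPM in siControl libraries (limma adjusted p = 0.409), and was named after its values were seen.

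The tricarboxylic acid cycle had a median of -0.093, with 9 of 14 negative, and of -0.057 without siLIX1L 3. IDH2, its NADP-dependent isocitrate dehydrogenase, was at 29.9, 31.5 and 29.6 RPM in siLIX1L 1, 2 and 3, against 53.8 and 116 RPM in siControl 1 and 2 (limma adjusted p = 0.0779), and FH, fumarase, at 53.7 ± 9.99 RPM in siLIX1L and 88.4 ± 11.7 RPM in siControl libraries (limma adjusted p = 0.0977). Protein import had a median of -0.072, which was 0.018 without siControl 1 and -0.22 without siControl 2, with TIMM17B at 37.2 ± 6.02 RPM in siLIX1L and 58.9 ± 1.48 RPM in siControl libraries (limma adjusted p = 0.0953) and TIMM50 at 55.9 ± 13.8 RPM in siLIX1L and 93.2 ± 9.06 RPM in siControl libraries (limma adjusted p = 0.111). Regulators of biogenesis had a median of 0.17, of 0.37 without siControl 1 and of -0.09 without siControl 2. Of the ribosomal proteins of the cytoplasm, RPL10 was at 160 ± 10.5 RPM in siLIX1L and 292 ± 2.11 RPM in siControl libraries (limma adjusted p = 0.0503), and RPLP1 at 175 ± 47.9 RPM in siLIX1L and 398 ± 61.0 RPM in siControl libraries (limma adjusted p = 0.0641).

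**Figure D5:**
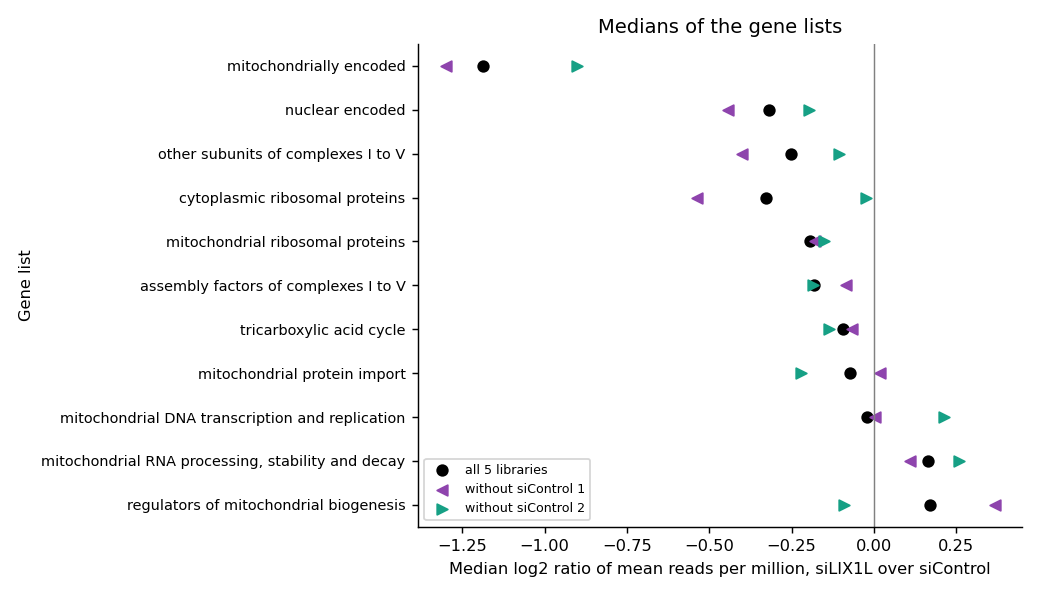
Median log2 ratio of mean RPM, siLIX1L over siControl, for the members and 9 other lists. These 9 include the cytoplasmic ribosomal proteins and leave out the isoforms and free factors. Medians are shown with all 5 libraries (black circles), without siControl 1 (purple, pointing left) and without siControl 2 (green, pointing right). The mitochondrially encoded genes lie between -1.30 and -0.90, and the cytoplasmic ribosomal proteins lie at -0.54 without siControl 1 and at -0.02 without siControl 2.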

How the data were processed

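RNA-seq of LX-2 cells was analysed in 5 libraries (3 siLIX1L, 2 siControl), grouped by the siRNA named in the titles. FPKM of 19936 genes per library were deposited by the authors, and siLIX1L 3 also has the deposited count of reads per gene and a gene length, per the file headers, which equals the gene span with introns in GENCODE 29 for 98.2% of genes. The submitters' processing notes name Bowtie 0.12.2, an aligner that does not span splice junctions, and mm8, a mouse genome, whereas the gene IDs are human; counting tool and strandedness: not given in the sources used here. FPKM times length gave whole reads (tolerance 0.01) for 100% of values, equal to the deposited counts for all 19936 genes of siLIX1L 3. A count of 0 allows up to 3 reads, 0.164 to 0.202 RPM. Intervals cover counting error only.

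Limma 3.58.1 (R 4.3.3; robust eBayes with a mean trend; two-sided; Benjamini-Hochberg threshold 0.05) was fitted to log2(FPKM + 1) over the 6464 genes that reached 1 FPKM in 2 or more libraries, a scale that understates changes of low genes; 7 nuclear members lay below that minimum. EdgeR 4.0.16 (quasi-likelihood, TMM; 13026 genes) and DESeq2 1.42.0 on the recovered reads were alternatives. Other alternatives were no minimum, a minimum of 5 FPKM, a pseudocount of 0.1, other scalings, a replicate block, removal of a length and GC trend, and leaving out each library. The fits were tested on simulated data. P-values reflect the variation among these 5 libraries alone, possibly technical. Lengths per kilobase of mRNA are those of the principal coding transcript in GENCODE 29; symbols come from the gene table of the reference and matched all 57 members. Members and lists were chosen with earlier results of these data known. Named are LIX1L, all MT- genes, the nuclear member of each complex with the lowest and the highest log2 ratio, the 3 with the highest level per kilobase, and in each other list the 2 genes with the smallest p.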

Additional observations from a re-analysis of the deposited data

How the results depend on the processing

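The count of 121 genes past limma's threshold was 50 with no minimum level, 233 with quantile normalization, 188 with edgeR, 1673 with DESeq2, 0 with siLIX1L 1 and 2 averaged and 0 once the trend on length and GC was removed (953 and 1496 at an unadjusted p under 0.05), and 0 to 1517 with 1 library left out, 0 without any siLIX1L library, 258 without siControl 2 and 1517 without siControl 1. Of the members, 0 of 50 were past it, 4 of 34 with a minimum of 5 FPKM (5.66% of all genes, 138), 2 of 50 with a pseudocount of 0.1 (2.41%, 156), 1 of 50 with quantile normalization (3.60%), 2 of 57 with edgeR (1.44%), 11 of 57 with DESeq2 (12.5%) and 0 to 19 with 1 library left out (0 to 24.1%). With the replicate number as a block it was 1 of 50 (1.45%, 94 genes). Deviations of same-numbered libraries had correlations of -0.12 and -0.09 for numbers 1 and 2. With 2 controls, whose deviations mirror each other, these correlations cannot exclude a pairing by number.

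The nuclear median of -0.32 was -0.089 once the trend on length and GC was removed; the cause was not tested. Under the other settings it stayed within 0.20, the larger SD between libraries, here that of the 2 controls. With the same trend removed the MT- median of -1.19 was -0.85. That shift was only just within its SD of 0.34, which is again that of the 2 controls, so this limit is wide. In the other settings the MT- median also stayed within its SD, as did the difference between both medians in all settings. A filter or pseudocount does not enter these medians. The sign of the ratio turned in at least 1 setting for 1 of 13 MT- genes (MT-ND4L) and 22 of 44 nuclear members. The limma difference of CYCS, -0.07, turned to 0.10 with quantile normalization, 0.093 with the replicate block, 0.093 without siLIX1L 3 and 0.25 without siControl 1, and was -0.39 without siControl 2. LIX1L lost its call in 6 settings (adjusted p = 0.0616 to 0.228) and kept its direction. It was below the minimum, and so not tested, with a minimum of 5 FPKM or with either control left out. With 2 controls, depth is not the limit for the MT- genes: each had 269 reads or more.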

Other observations

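Of the 44 nuclear members, 8 overlap another listed gene on the same strand in GENCODE 29: NDUFA9, NDUFB8, NDUFC2, NDUFS3, SDHD, COX6A1, COX8A and ATP5PO. Their median level was 8.22 RPM in siLIX1L libraries and 9.19 RPM in controls, against 66.0 and 85.3 RPM for the other 36. Some of these 36 overlap a listed gene on the opposite strand: counting either strand, 17 of the 44 nuclear members have an overlap. Of the 13 MT- genes 5 do, among them MT-CO3 with MT-ATP6. NDUFB8, an accessory subunit of complex I, had 11 to 15 reads in siLIX1L libraries and 14 and 16 in controls. NDUFV2, an iron-sulfur subunit of complex I with no such overlap, had 10, 18 and 16 reads in siLIX1L 1, 2 and 3, against 20 and 34 in siControl 1 and 2. Pseudogenes named after a member are annotated for all 13 MT- genes (394 loci) and for 28 nuclear members (83 loci), and no source used here says how reads shared with them or with an overlapping gene were counted, so the levels of these members are uncertain.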
